A study of Drosophila sechellia with 6 samples.

Results

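Of 15672 *Drosophila sechellia* genes with symbols made of GM and a number and loci spanning fewer than 30000 bases, 37 were listed at 0 FPKM in flies exposed to octanoic acid (OA) and at 2 FPKM or more in control flies. FPKM counts sequenced fragments after scaling to transcript length and library size. These 37 genes, 0.236% of that set and drawn from a table of 17275 entries in all, are described here. They were chosen by both of these group values, so their levels and their fall are a description and carry no test. Since a 0 in such a table may stand for no reads or for an estimate that failed, the genes are only called listed at 0.

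The libraries came from whole adult females of *D. sechellia* strain 14021-0428.25, kept for 24 hr on control food or on food with 0.7% OA. Each food had 3 libraries, and each library was made by poly(A) selection from a homogenate of 10 flies. The age is given as 1 to 4 days in one label and as 0 to 3 days at collection in another. The strain, sex and rearing at 20° were common to both groups, and no fly line with an altered gene was used.

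*D. sechellia* is a specialist on the fruit of *Morinda citrifolia*, and OA is a medium chain fatty acid of that fruit that is toxic to related flies. The comparison asks which genes change their expression when the specialist meets the toxin. GM numbers are the running identifiers given to the predicted genes of this species. In a whole fly a gene that is read in few cells, or only for a short time, leaves few fragments in the pooled RNA, and a short transcript leaves fewer than a long one at the same number of molecules. In such bulk RNA, fewer cells of a type and less RNA per cell cannot be told apart.

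The table holds 1 value per gene and group, computed by the authors over the 3 libraries, so the spread between libraries is unknown for every value below. As a check of the labelled sex, the yolk protein gene *Yp2* was at 11392 FPKM under control food and at 15455 FPKM with OA, and the male accessory gland genes *Acp70A* and *Acp26Aa* were listed at 0 in both. The ribosomal protein genes *RpS18*, *RpS21* and *RpS3A* lay between 3723 and 9159 FPKM in both groups, so the listed zeros did not extend to these constantly used genes. Changes are given as the log2 of the OA level over the control level after a pseudocount of 1 FPKM was added to each, and their median over all GM genes was 0.0028.

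None of the 37 genes is paired with a gene name. The 11 genes paired with names in the paper's tables are not among them, and 0 of the GM symbols or FlyBase numbers occur in the RefSeq gene table used here, which belongs to another assembly. The genes are therefore given by scaffold, position and span, with positions on assembly GCA_000005215.1 counted from 1, and only the identifiers of the top pair by control level are printed. What these genes do is not annotated in the sources used here.

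The control levels were low and uneven. The lowest of the 37 genes was at 2.03 FPKM, the median gene at 3.70 FPKM and the highest at 62.5 FPKM, while OA was listed at 0 in each. Between 2 and 5 FPKM there were 23 genes, between 5 and 10 FPKM 8, between 10 and 20 FPKM 2, and above 20 FPKM 4. In sum the genes came to 335 FPKM in control, 0.0186% of the summed FPKM of GM genes, and the top 5 made up 58.4% of it. On the log2 scale with the pseudocount of 1, the changes ran from -5.99 to -1.60 with a median of -2.23, beside a median of 0.08 over 7524 GM genes in the same control range that were above 0 in OA. These 7524 genes share only the limits of that range. Their control median was 19.0 FPKM, with quartiles of 8.73 and 32.8 FPKM. The quartiles of the 37 were 2.49 and 6.73 FPKM.

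**Figure D1:**
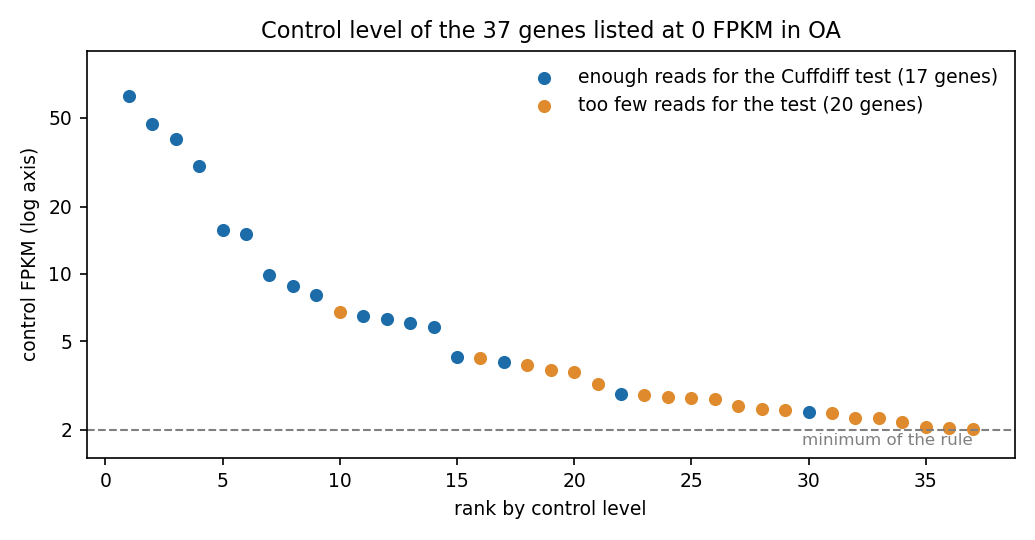
Control level in FPKM, on a log axis, of each of the 37 genes against its rank, with 1 point per gene and the color showing whether Cuffdiff had enough reads to test it. The 4 genes above 20 FPKM stand at the left, and the 20 genes with too few reads for a test lie at or below 6.73 FPKM.

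The highest level was that of GM18851, on scaffold 3 from 6477010 to 6477204, a locus of 195 bases at 62.5 FPKM in control. GM25374, on scaffold 0 from 4992262 to 4992408, was at 46.8 FPKM in control and is, at 147 bases, the shortest locus of the 37. The third gene lies on scaffold 3 from 6472560 to 6472922 and was at 40.3 FPKM. The top 3 thus spanned 147 to 363 bases, and the first and the third of them are close neighbours on 1 scaffold. The fourth gene, on scaffold 0 from 5546410 to 5546850, was at 30.5 FPKM. A gap follows it, because the fifth gene, on scaffold 3 from 39703 to 40135, was at 15.7 FPKM and the sixth, on scaffold 2 from 3306216 to 3306428, at 15.2 FPKM. The ranks from 7 to 10 were held by loci of 174 to 192 bases on scaffolds 14, 8, 5195 and 11, with 9.84, 8.85, 8.04 and 6.73 FPKM.

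At the other end, the 5 genes just inside the minimum were at 2.03, 2.04, 2.06, 2.17 and 2.26 FPKM in control. Just outside it, the 5 highest genes listed at 0 in OA were at 1.98, 1.98, 1.97, 1.94 and 1.91 FPKM. The levels therefore ran through the minimum without a step, and 298 further GM genes were listed at 0 in OA and above 0 but under 2 FPKM in control. The limit on span left out 1 gene, on scaffold 7, whose locus of 91384 bases was at 2.46 FPKM in control. Small OA values above 0 were few. Among GM genes at 2 FPKM or more in control, only 3 had an OA value above 0 and under 0.1 FPKM, and 27 had one above 0 and under 0.5 FPKM, beside the 37 at exactly 0. Those 3 genes, of 642 to 2013 bases, were at 2.63, 2.69 and 5.59 FPKM in control and between 0.069 and 0.076 FPKM in OA. No GM gene under 300 bases had an OA value above 0 that was below 0.247 FPKM, so for the 22 shortest of the 37 loci the lack of values under 0.1 FPKM goes with their length.

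Short loci made up most of the group. The median span was 249 bases, from 147 to 6642, beside 1416 bases over all GM genes under the limit and 1874 bases over the genes of the same control range above 0 in OA. Of the 37 loci, 22 were under 300 bases and 11 were from 300 to under 1000 bases. Loci under 300 bases were thus 59.5% of the group, beside 6.70% of all GM genes and 3.14% of the genes in the same control range. That last set was mostly at higher control levels, so the contrast with it is not matched for level. Level and span went together only weakly within the group (across genes, Pearson's r = -0.20 on log10 values and Spearman's rho = -0.23, n = 37, a description, since all points share the same libraries and FPKM itself contains the length). The 22 shortest loci had a median of 3.42 FPKM, the 11 of 300 to under 1000 bases 4.04 FPKM and the 4 longer ones 3.18 FPKM.

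**Figure D2:**
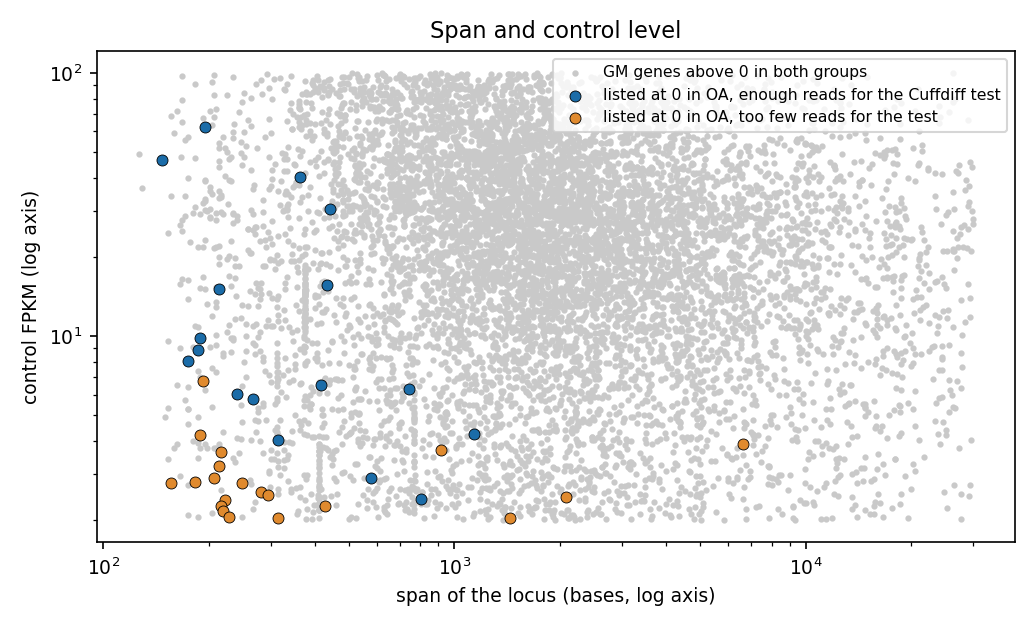
Control FPKM against the span of the locus in bases, both on log axes, with the 37 genes as colored points and GM genes from 2 to 100 FPKM in control that were above 0 in both groups as gray points. Most colored points lie at the left and bottom of the gray cloud, where 22 of the 37 loci span under 300 bases.

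Whole codons were the rule. In 32 of the 37 loci, or 86.5%, the span was a whole number of codons, beside 48.5% of all GM genes. This share follows the span, being 93.8% over GM genes under 300 bases and 60.3% from 300 to under 1000 bases, as is the case when a gene model is 1 coding exon without untranslated ends. For such models the span is the coding length. The 5 loci that were not whole codons span 433, 805, 917, 1441 and 2074 bases.

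Of the 37 loci, 4 were of 1000 bases or more, and 2 of these, of 1137 and 6642 bases, were whole codons. On scaffold 19, from 710784 to 711920, a locus of 1137 bases was at 4.24 FPKM in control, the only one of the 4 with enough reads for Cuffdiff to test. A locus of 1441 bases on scaffold 29, starting at 34107, was at 2.03 FPKM, and one of 2074 bases on scaffold 0, starting at 4835351, at 2.45 FPKM. All 4 were under 5 FPKM, so the long loci held none of the higher levels. The longest, 6642 bases on scaffold 6 from 2076813 to 2083454, stood at 3.90 FPKM in control. The table gives exactly the same locus to a second gene, which was at 0.482 FPKM in control and higher, at 1.01 FPKM, in OA. A locus in this table can hold several overlapping genes, so its span is an upper limit for either gene, and reads could be split between them. This was the only one of the 37 genes whose locus is shared.

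The number of reads behind a level was small for many of the genes. Cuffdiff tests a gene only where enough reads align to it, and it tested 17 of the 37 genes, or 45.9%, beside 99.5% of the genes in the same control range that were above 0 in OA. That comparison set was matched neither for level, with a control median of 19.0 FPKM, nor for span, with a median of 1874 bases. Among the 37, the median control level was 8.04 FPKM in the tested genes and 2.66 FPKM in the others. Control FPKM multiplied by the span in kilobases removes the scaling to length and gives the fragments of a locus on the library scale of FPKM, if all of the locus is transcript. For loci under 900 bases this product ran from 1.27 to 14.6 in the 16 tested genes and from 0.430 to 1.29 in the 16 untested ones, so in these short loci the ranges barely overlapped. The 4 untested loci of 917 bases or more had products of 2.92, 3.39, 5.09 and 25.9, within or above the tested range, so over all 20 untested genes the product did not separate the groups. In long loci part of the span may be intron, or belong to a second gene as on scaffold 6, which makes the product an upper limit. The product is approximate for short loci, for which the correction of the length by Cuffdiff matters most. The 1 value per group gives no spread by which to judge the difference of a control level from 0. The authors' own test results were not used here.

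The share of genes listed at 0 in 1 group varied with span in both directions. Among GM genes under 300 bases with 2 FPKM or more in either group, 22 of 525, or 4.19%, were listed at 0 in OA and 31, or 5.90%, at 0 in control. From 300 to under 1000 bases these were 0.373% and 1.19% of 2948 genes. From 1000 to under 3000 bases they were 0.0688% and 0.367% of 4359 genes, and from 3000 bases on 0.0333% and 0.133% of 3000 genes. Both shares fell with each step in span, and in every class more genes were listed at 0 in control than in OA. By the mapped reads that the paper lists, the OA libraries together were deeper than the control libraries. Whether depth bears on these shares was not tested. In all, 86 GM genes, or 0.549%, were at 2 FPKM or more in OA and listed at 0 in control. They had a median span of 448 bases and a median of 4.12 FPKM in OA, whole codons in 66.3% and enough reads for a test in 62.8%.

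Among genes above 0 in both groups and in the control range of the 37, the SD of the change narrowed with span. The SD over genes of log2 OA over control FPKM, without a pseudocount, was 1.09 for 236 genes under 300 bases, 0.76 from 300 to under 1000 bases, 0.43 from 1000 to under 3000 bases and 0.35 from 3000 bases on. The lowest ratios did not follow this order. The lowest log2 ratio was -3.33 under 300 bases, then -7.57, -7.06 and -6.46 in the longer classes, which hold 1659, 3211 and 2418 genes. The highest was 2.94 under 300 bases, then 3.47, 1.86 and 1.92. Under 300 bases 16.1% of the 236 genes were at least 2-fold lower in OA and 15.3% at least 2-fold higher. Large ratios of these short genes thus went both ways. From 300 to under 1000 bases, the class of 11 of the 37, more genes were lower than higher, 7.17% against 2.35%, and from 1000 to under 3000 bases the shares were 1.56% and 0.623%. From 3000 bases on they were 0.620% and 0.579%. This set was bounded by control level alone and leaves out genes under 2 FPKM in control that were higher in OA. It also leaves out genes above the control range that were lower in OA. The split between lower and higher depends on that choice and is not read as a trait of these genes.

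**Figure D3:**
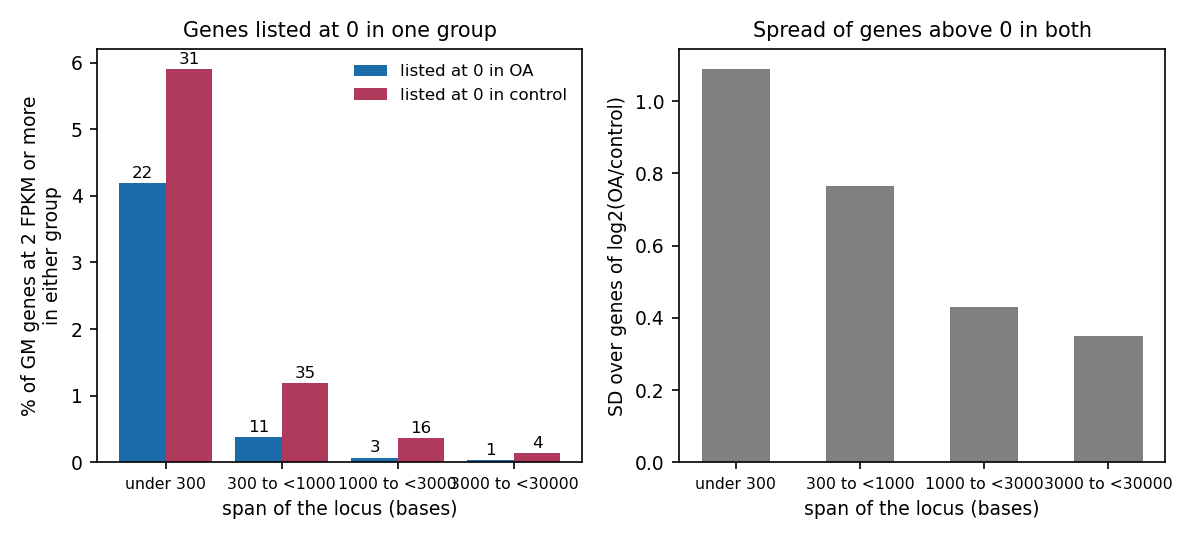
Left, the percent of GM genes at 2 FPKM or more in either group that were listed at 0 in OA (blue) or in control (red), by span class, with the number of genes above each bar. Right, the SD over genes of log2 OA over control FPKM among genes above 0 in both groups. Both panels fall from left to right, the blue bars from 4.19% to 0.0333% and the SD from 1.09 to 0.35.

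The share also varied with level within the short genes. Of the GM genes under 300 bases between 2 and 5 FPKM in control, 13 of 56, or 23.2%, were listed at 0 in OA. Between 5 and 10 FPKM it was 6 of 48, or 12.5%, between 10 and 20 FPKM 1 of 51, and between 20 and 70 FPKM 2 of 112, or 1.79%. Those last 2 were GM18851 and GM25374. A listed 0 was thus common among short genes of a few FPKM and rare among those above 20 FPKM. Among GM genes under 300 bases, the lowest OA value above 0 was 0.247 FPKM, and 10% of those above 0 were under 1.64 FPKM. In control, the lowest value above 0 was 0.440 FPKM, and 10% of those above 0 were under 2.09 FPKM. The minimum of 2 FPKM in control thus lies near the low end of the levels that such short loci show.

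The 37 genes were spread over 23 scaffolds. Scaffold 0 held 6 of them, scaffold 2 held 4 and scaffold 3 held 3, while 4 scaffolds held 2 each and 16 held 1 each. Scaffolds 0, 2 and 3 are long, with 3080, 1059 and 1005 entries of the table. In contrast, 4 genes were the only entry of their scaffold, 10.8% of the group beside 4.01% of GM genes. These were loci of 174 to 315 bases on scaffolds 5195, 6891, 11559 and 14068, at 8.04, 2.04, 2.77 and 2.38 FPKM in control. A further 2 genes lay on scaffolds of 4 entries, so that 6 of the 37, or 16.2%, were on scaffolds of 4 entries or fewer. Among all GM genes this share was 6.76%. Of the genes at 2 FPKM or more in OA and listed at 0 in control, 6.98% were on such scaffolds and 2.33% were the only entry. These backgrounds were not matched for span, and the shares among short genes were not computed. On scaffold 3946, 1 of the 2 with 4 entries, the gene from 16 to 231 was at 3.63 FPKM. It lies 280 bases before *His4*, a histone gene, which went from 9.96 to 6.16 FPKM.

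Close pairs were few. Of the 37 genes, 6 had another of the 37 within 20000 bases, in 3 pairs, beside 23 of the 86 genes listed at 0 in control, or 26.7%, in 10 groups. The 2 sets differ in size, which itself bears on such counts. The next smallest distance, between the 2 genes on scaffold 16, was 96838 bases, so that no further pair lay near the limit.

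The pair with the highest levels is on scaffold 3. It consists of the gene from 6472560 to 6472922, at 40.3 FPKM in control, and GM18851, at 62.5 FPKM, 4087 bases apart with no other entry between them. On the far side of GM18851, at 6478174 to 6478659, a gene of 486 bases went from 37.2 to 61.8 FPKM. The other side was nearly silent, with 2 genes that share a locus of 2220 bases at 0.329 and 0 FPKM in control and both listed at 0 in OA. Of the 3 genes above 1 FPKM in control in this stretch, 2 were therefore listed at 0 in OA and 1 was higher there.

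The closest pair is on scaffold 2, where 428 bases separate a locus of 213 bases, from 3306216 to 3306428, and one of 216 bases, from 3306857 to 3307072. They were at 15.2 and 2.26 FPKM in control. Short genes of far higher levels lie on both sides. The one before them, of 174 bases, went from 398 to 471 FPKM, and the one after them, of 210 bases from 3308491 to 3308700, from 2069 to 987 FPKM. The 4 loci in a row thus have nearly the same length and control levels from 2.26 to 2069 FPKM, and of the outer genes 1 was higher and 1 lower in OA. Whether reads were shared among them was not tested, since no sequences were used here.

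The third pair, on scaffold 18, had the lowest levels, 2.17 FPKM from 734354 to 734572 and 2.06 FPKM from 738546 to 738773. Between them lies 1 gene of 2130 bases, which went from 240 to 201 FPKM. Both members of this pair had too few reads for a test and lie just inside the minimum.

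**Figure D4:**
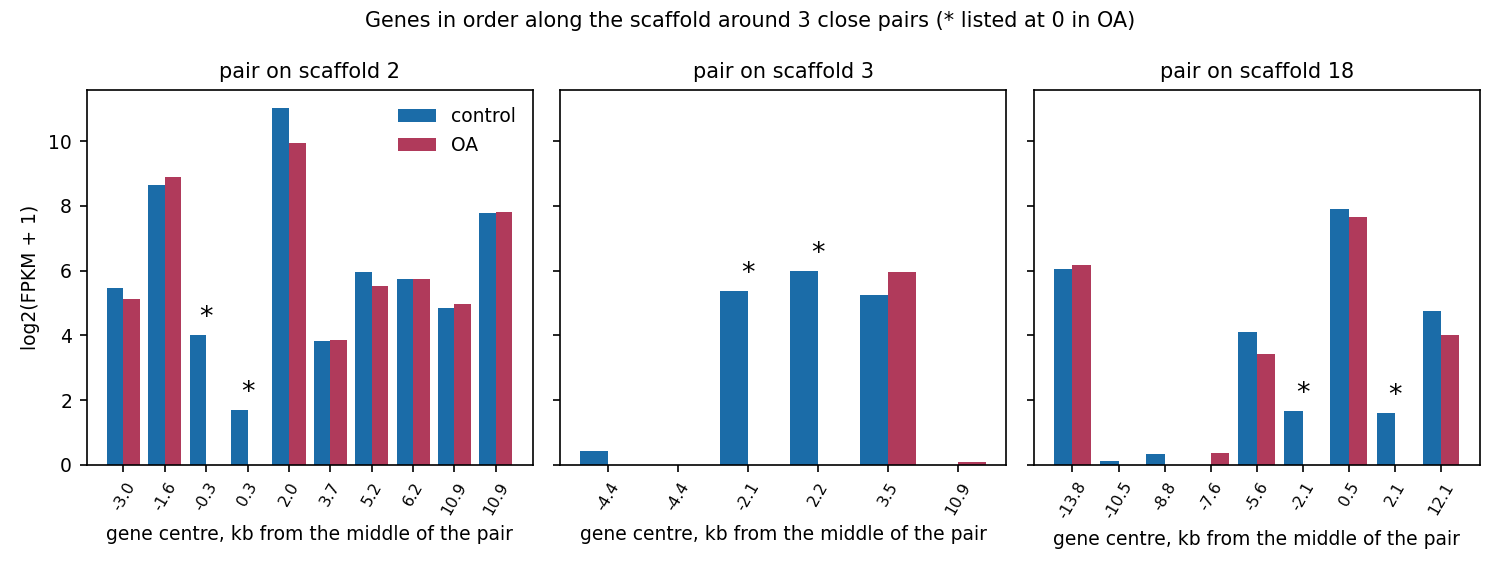
Control (blue) and OA (red) levels as log2 of FPKM + 1 for each gene within 10000 bases of the 3 close pairs, in order along the scaffold, with the distance of each gene's centre from the middle of the pair in kb below the bars and asterisks on the 6 paired genes. The paired genes have no red bar, while each neighbour shown on scaffold 2 has both bars, as with 398 and 471 FPKM.

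The genes next to the 37 loci were not used to choose them. Within 10000 bases there were 48 nearest GM genes outside the group, and 37 of these neighbours were above 0 in both groups. Of these, 21, or 56.8%, were lower in OA, beside 42.9% of all GM genes above 0 in both groups, and their median log2 change was -0.03, beside 0.05. Their changes ran from -2.05 to 0.72. Of 28 neighbours at 2 FPKM or more in control, 23 were within 2-fold, 0 were at least 2-fold higher and 5, or 17.9%, were at least 2-fold lower in OA. The background for this last share is 2.57% of GM genes, whose median span of 1623 bases and median control level of 29.7 FPKM compare with 1064 bases and 21.8 FPKM in the 28 neighbours. It is not matched for span. In the control range of the 37, the share was 16.1% under 300 bases and 7.17% from 300 to under 1000 bases. From 1000 to under 3000 bases it was 1.56%. With 5 genes and no spread between libraries, no difference from the background of 2.57% is claimed.

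These 5 neighbours can be given one by one. Beside the gene of 30.5 FPKM on scaffold 0, a locus of 1111 bases only 225 bases away went from 2.67 to 0.393 FPKM. Beside the gene of 6.50 FPKM on scaffold 2, from 4676278 to 4676694, a locus of 300 bases went from 6.67 to 0.857 FPKM. Both of these neighbours were under 1 FPKM in OA. On scaffold 34, 314 bases from the gene of 2.88 FPKM, a locus of 312 bases went from 7.00 to 2.64 FPKM. On scaffold 13, 3403 bases from the gene of 3.20 FPKM, a locus of 1441 bases went from 5.89 to 1.09 FPKM. The last of the 5 is the gene at 2069 FPKM beside the close pair on scaffold 2, the only one of them above 10 FPKM in control.

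**Figure D5:**
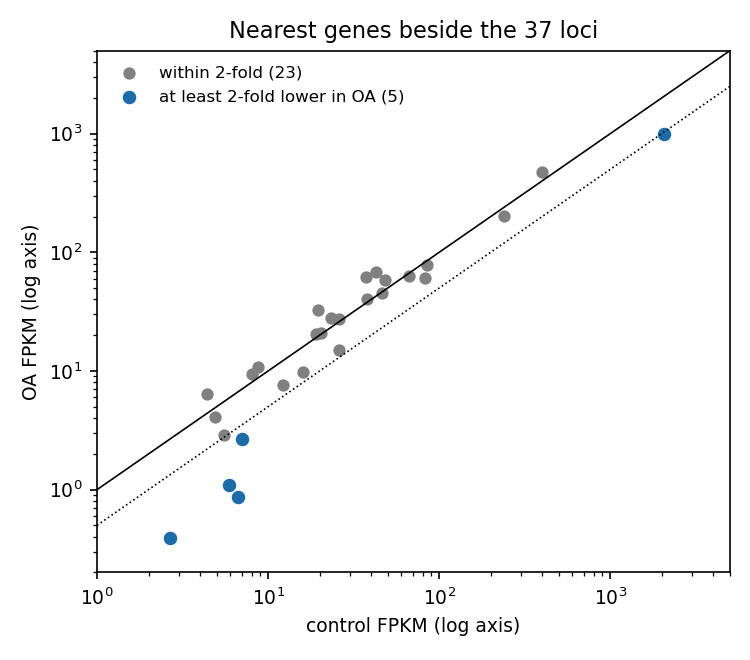
OA against control FPKM, on log axes, for the 28 nearest GM genes within 10000 bases of the 37 loci that were at 2 FPKM or more in control and above 0 in OA. The solid line marks equal levels and the dotted line a 2-fold lower level in OA. The 23 gray points lie near the solid line, and the 5 blue points lie on or below the dotted line.

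Some of the 37 genes lie almost against a well expressed neighbour that was within 2-fold between groups. On scaffold 14, from 1831531 to 1831719, the gene of 9.84 FPKM begins 2 bases after a locus of 1364 bases that went from 82.6 to 60.3 FPKM. On scaffold 0, from 20810078 to 20810317, the gene of 6.04 FPKM ends 17 bases before a locus that went from 20.3 to 20.7 FPKM. On scaffold 19, the locus of 1137 bases at 4.24 FPKM lies 259 bases before a gene that went from 46.3 to 45.4 FPKM. Such closeness was not rare in the assembly. Of the 33 genes with another entry on their scaffold, 16, or 48.5%, had one within 500 bases or overlapping, beside 44.9% of all GM genes and 39.7% of those under 300 bases.

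On 2 scaffolds, genes that the paper's tables name lie along with members of the group. The 6642-base locus on scaffold 6 ends 64069 bases before *Osi6*, a gene of the *Osiris* family, which was at 3.03 FPKM in OA and listed at 0 in control. This locus and the 6 named *Osiris* genes were thus listed at 0 in opposite groups. On scaffold 17, the gene of 156 bases starting at 260354, at 2.76 FPKM in control, lies 162095 bases before *CG9672*, which went from 49.1 to 21.2 FPKM. It lies 192461 bases before *TwdlY*, a cuticle protein gene, which moved the other way, from a listed 0 to 3.27 FPKM.

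Entries with other names met the same levels in 46 cases and are outside the group of 37. Of the 17275 entries in all, 16091 have GM symbols, and the rest are the background of this count. Shares within each class of RNA were not computed, so the counts by class are not read as a result. Of the 46, 21 were RF family RNAs, 20 snoRNAs, 2 miRNAs, 1 a tRNA and 1 an snRNA. The remaining 1 is a coding gene, *CecB*, an antimicrobial peptide gene with a locus of 251 bases on scaffold 4, which was at 22.8 FPKM in control and listed at 0 in OA. Its span is close to their median of 249 bases, and its level lies between those of the fourth and the fifth of them.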

How the data were processed

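RNA-seq of poly(A) RNA from whole females was deposited as 1 table for 3 control and 3 OA libraries. The authors aligned reads with Bowtie2 to the Ensembl genome GCA_000005215.1 and quantified genes with Cuffdiff, run in Galaxy with annotation release 34. Normalization was geometric, and values were corrected for length and for sequence bias. The versions are not given in the sources used here. The deposited FPKM values are 1 per gene and group. The table's columns with the authors' log2 fold change, test statistic (a score), p-value and q-value hold their own comparison and were not used. Its status column, which says whether a gene had enough reads to be tested, was used. Depth per gene is unknown, because corrected FPKM values are not whole reads.

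The rule took GM symbols with 0 FPKM in OA, at least 2 FPKM in control and a span under 30000 bases. Spans are the end minus the start of the deposited locus. Neighbours were taken edge to edge on the same scaffold. No test was computed, because both values were used for the choice and no value per library was at hand. The genes, classes and sets compared were chosen with earlier results of these data known. By rule, identifiers without a name were printed only for the 2 highest genes, and other genes by position; the neighbours that fell were singled out after their values were seen. Keyword classes of function were not counted, because no description was paired. Member choice, neighbour grouping and log2 change were tested on simulated data. Alternatives to the minimum, the span limit, the pseudocount, the scaling and the distance were computed. The work used pandas 2.3.3, NumPy 2.4.6 and Matplotlib 3.10.9 under Python 3.11.15.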

Additional observations from a re-analysis of the deposited data

How the results depend on the processing

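No paired analysis was possible because the 3 libraries of a group share 1 deposited value, and fits without each replicate were not run for the same reason. The number of genes followed the minimum. With a control minimum of 1 FPKM in place of 2 it was 72, with a median control level of 2.04 FPKM, and with a minimum of 5 FPKM it was 14, with a median of 9.35 FPKM and 2 genes in close pairs in place of 6. Only 17 of the 37 had enough reads for a test. The median log2 change went from -2.23 to -5.25 with a pseudocount of 0.1, as the pseudocount sets the change of a gene listed at 0. The other alternatives moved these numbers by less than 1.5 times. Among them, an OA value under 0.1 FPKM in place of 0 gave 40 genes, no limit on span gave 38, and *CecB*, added after seeing the data, also gave 38. Some alternatives could not move a number and carry no information. Rescaling to the same total FPKM left each listed 0 at 0 and the median change at -2.23. A span limit of 10000 bases lies above the longest of the 37 loci. The 1 shared locus is shared with a gene outside the 37, so counting overlapping loci once kept all 37. The median span stayed between 226.5 and 315 bases under the other minimums. The paper gives the mapped reads of each library. The precision of single levels still cannot be given, since the reads per gene and the spread between libraries are unknown.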
